A study of Vitis vinifera with 3 samples.

Results

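VvmiR166 is the grapevine form of a miRNA family that land plants share, and its 5′ fragments were followed here across berry development. The family had 8 members, VvmiR166a to VvmiR166h, amongst the 161 known VvmiRNAs/VvmiRNAs* whose mature sequences the study lists. A read of 14 to 17 nt was taken as a 5′ fragment if it was identical to the first bases of a listed mature VvmiR166. In all, 7 of the 41342 distinct sequences of the series met this rule, with 2290 of 39791 reads at YB, 714 of 33228 at SB and 117 of 75960 at MB. YB, SB and MB are young, stone-hardening and mature (ripening) berries at 5, 45 and 90 days after flowering (DAF). The labels name no treatment and no cultivar. The paper names the ‘Wink’ cultivar as its material and for the SB library, and does not name that of the YB and MB libraries. Each stage had 1 library, so no difference between stages has a replicate check, and all intervals below cover counting error only. The YB and MB libraries come from other work of the same group according to the paper, so that batch and stage cannot be told apart. All deposited reads were 3 to 17 nt long, which is below the length at which VvmiRNAs were called in the study, and full-length VvmiR166 reads were not analysed here.

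In plants, miR166 pairs with the transcripts of HD-ZIP III transcription factors, such as PHABULOSA and REVOLUTA of Arabidopsis, and guides their cleavage. These factors set the upper side of lateral organs and take part in vascular and meristem development, and miR166 keeps their transcripts out of the lower side. The cut in a target lies opposite bases 10 and 11 of the miRNA, and pairing of the seed (bases 2 to 8) is needed for it.

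The mature sequences show which members the short reads can tell apart. They are given 5′ to 3′ with the seed in capitals, as listed for the 8 members:
VvmiR166a: tCTCGGACcaggcttcattcc
VvmiR166b: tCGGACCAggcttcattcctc
VvmiR166c: tCGGACCAggcttcattcccc
VvmiR166d to VvmiR166h have the sequence of VvmiR166c. The 8 members thus had 3 distinct mature sequences of 21 nt and 2 seeds. VvmiR166b and VvmiR166c share their first 19 nt, so their fragments were counted together as VvmiR166b-h. VvmiR166a starts 2 bases earlier on the same core and holds the shared bases at another position, which gives it a seed of its own. All 8 members matched a MIR166 gene by name in the RefSeq annotation of the ASM3070453v1 assembly, from MIR166A to MIR166H. Their sequences were not compared with it. In this annotation, 0 of these genes were next to each other. The reads carry no coordinates, and a fragment cannot be assigned to one of the 7 genes behind VvmiR166b-h. The 19 nt shared by VvmiR166b-h also lie within VvmiR166a, 2 bases after its start. A read counted as VvmiR166b-h could thus also come from MIR166A, and only reads with the earlier start were counted as VvmiR166a.

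The fragments of VvmiR166b-h were highest in young berries and lowest in mature berries. The YB library had 2288 such reads, the SB library 712 and the MB library 112. As a share of all reads below 18 nt, they held 5.75% in young berries (95% Wilson interval 5.53% to 5.98%), 2.14% in stone-hardening berries (1.99% to 2.30%) and 0.147% in mature berries (0.123% to 0.177%). The 3 intervals did not overlap. The share at YB was 2.68-fold that at SB, a log2 (YB/SB) of 1.42 with an exact 95% interval of 1.30 to 1.55. The share at MB was 14.5-fold lower than at SB, a log2 (MB/SB) of −3.86 (−4.16 to −3.57), and 39.0-fold lower than at YB (log2 −5.29, −5.57 to −5.01). Each of these passed the 2-fold cut-off of the study, a log2 of at least 1 in either direction.

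The size of the fall at MB depended on what the reads were set against. At MB, 57.2% of all reads below 18 nt came from the 2 most abundant sequence families, which are not VvmiR166, against 17% at YB and 16.6% at SB. Without these families the log2 (MB/SB) was −2.90, and against the clean reads of each library it was −2.57. The log2 (YB/SB) against clean reads was 1.87. Scaled by all listed 5′ fragments, of which VvmiR166b-h itself is a large share, the log2 (YB/SB) was 0.48 (0.35 to 0.60) and the log2 (MB/SB) −0.26 (−0.56 to 0.03), so that neither passed the cut-off and the latter interval included 0.

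Amongst the 86 groups of listed VvmiRNAs that differ in their first 14 nt, VvmiR166b-h had the most fragments in all 3 libraries. It made up 62.5% of all listed fragments at YB (95% Wilson interval 60.9% to 64.1%), had 44.9% at SB (42.5% to 47.4%) and was still at 37.6% in the MB library (32.3% to 43.2%). It was read against all groups with at least 10 fragments in the library with more. VvmiR166b-h was the only one of 6 past the cut-off upwards from SB to YB (16.7%), and 33.3% of the 6 passed it downwards. The latter were VvmiR319e, with 6 and 12 reads at YB and SB, and VvmiR3623*, with 6 and 11. Their log2 values of −1.26 (−2.96 to 0.27) and −1.13 (−2.85 to 0.43) had intervals that included 0. VvmiR3633a, with 9 and 1 reads at YB and SB, was under this minimum and had a log2 of 1.32 (0.06 to 8.36). From SB to MB, 6 of 8 groups (75%) passed the cut-off downwards, and from YB to MB 4 of 6 (66.7%). Against reads below 18 nt, the fall at MB was thus not particular to VvmiR166. Other totals were not applied to the other groups, so these counts hold for this total only. Over all distinct sequences of 14 to 17 nt with at least 10 reads, 23.2% of 375 rose from SB to YB and 23.7% fell. From SB to MB, 26.8% of 544 rose and 33.6% fell, and from YB to MB 41.4% of 587 rose and 37.6% fell. The median log2 of these sequences was −0.01 for YB/SB and 0.39 for MB/SB.

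**Figure D1:**
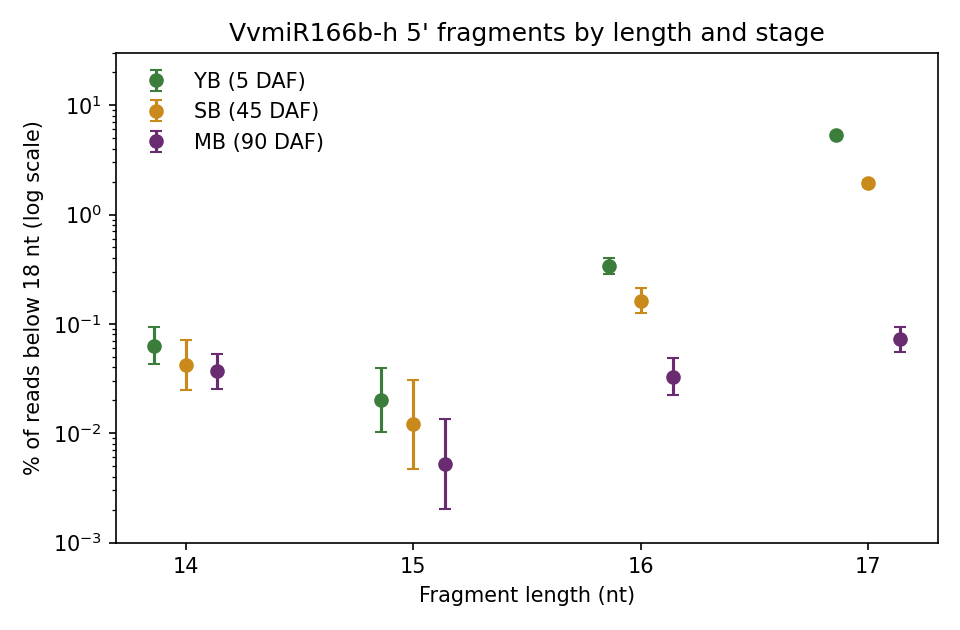
Share of reads below 18 nt (%, log scale) held by VvmiR166b-h 5′ fragments of 14, 15, 16 and 17 nt (x axis) in the YB, SB and MB library (1 library each), with 95% Wilson intervals. The 17 nt fragment falls from 5.33% at YB to 0.0724% at MB, while the intervals of the 14 nt fragment overlap between the 3 libraries.

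The fall from SB to MB differed by length and was largest in the longest fragments. The 2 ends of the length range that carry this contrast were:
17 nt: tCGGACCAggcttcatt
14 nt: tCGGACCAggcttc
Both hold the whole seed, in capitals, and bases 10 and 11, and they differ by the 3 bases att at the 3′-end. Young berries had 2121 reads of the 17 nt fragment, stone-hardening berries 640 and mature berries 55. Amongst all distinct sequences ordered by reads, it was number 2 at YB and number 3 at SB, but had 47 sequences above it at MB. Its log2 (YB/SB) was 1.47 (1.34 to 1.60) and its log2 (MB/SB) was −4.73 (−5.16 to −4.33), which is a 26.6-fold lower share. Its log2 (MB/SB) was −3.44 against clean reads and −3.77 without the 2 most abundant families.

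At MB, the 14 nt fragment behaved otherwise. Its reads numbered 25 at YB, 14 at SB and 28 at MB, and as shares of the reads below 18 nt these were 0.0628%, 0.0421% and 0.0369%. Its log2 (YB/SB) was 0.58 (−0.42 to 1.63) and its log2 (MB/SB) was −0.19 (−1.17 to 0.85), and neither passed the cut-off. Against clean reads, a scaling added after the values were seen, the log2 (MB/SB) of this fragment was 1.10 (0.13 to 2.14) and its log2 (YB/SB) 1.02 (0.02 to 2.08), so that its direction from SB to MB turned and both values passed the cut-off. Without the 2 most abundant families, the log2 (MB/SB) was 0.77 (−0.21 to 1.81). The upper bound of −4.33 for the 17 nt fragment lay below the lower bound of −1.17 for the 14 nt fragment. The 14 nt reads were matched to the listed sequences only, and whether some come from outside VvmiR166 was not tested.

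The 16 nt fragment lay between these ends. At 16 nt there were 134, 54 and 25 reads at YB, SB and MB, with a log2 (YB/SB) of 1.05 (0.59 to 1.53) and a log2 (MB/SB) of −2.30 (−3.05 to −1.59). The latter was −1.01 (−1.76 to −0.30) against clean reads and −1.34 (−2.09 to −0.63) without the 2 most abundant families. The 15 nt fragment was rare in every library, with 8, 4 and 4 reads at YB, SB and MB, and its intervals against SB included 0. For YB/SB, the intervals at 14, 15 and 16 nt all included the 17 nt value of 1.47. Below the length limit of the rule, the first 13 nt had 5, 5 and 3 reads and the first 12 nt had 6, 5 and 3. The 14 nt fragment thus had more reads than its neighbours of 13 and 15 nt in all 3 libraries.

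**Figure D2:**
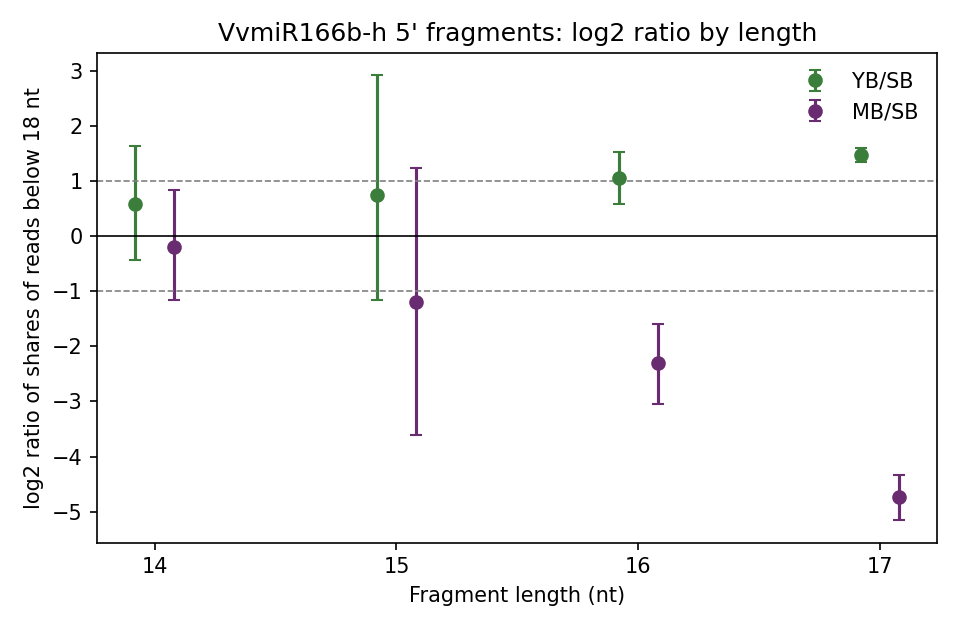
log2 ratio of the shares of reads below 18 nt (y axis) for VvmiR166b-h 5′ fragments of each length (x axis), YB against SB and MB against SB, with exact 95% intervals of counting error. Dashed lines mark the cut-off of 1 in either direction. The MB/SB values go from −0.19 at 14 nt to −4.73 at 17 nt.

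The make-up of the fragments does not depend on the scaling. Fragments of 17 nt were 92.7% of the VvmiR166b-h fragments at YB (91.6% to 93.7%) and 89.9% at SB (87.5% to 91.9%). In the MB library they were 49.1%, and the interval of this share ended at 58.2%. Fragments of 14 nt were 1.09%, 1.97% and 25.0% of them at YB, SB and MB, and the MB interval of 17.9% to 33.8% lay above both others. There were 84.8 reads of 17 nt for each read of 14 nt at YB, 45.7 at SB and 1.96 at MB. Amongst all reads of 14 to 17 nt, the share of 17 nt went from 45.2% at YB to 41.8% at SB and 29.8% at MB, while that of 14 nt was 6.55%, 7.03% and 6.27%. The shift of VvmiR166b-h towards 14 nt was thus not seen in the libraries as a whole.

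VvmiR159c, which acts on GAMYB transcription factors, was the group with the next most fragments at YB and SB and had another profile. Its 17 nt share was 47.6% at YB, 47.5% at SB and 41.9% at MB (28.4% to 56.7%), and its 14 nt share at MB was 4.65% (1.28% to 15.5%) of 43 reads, below the interval of VvmiR166b-h. At MB, its fragments of 15 nt had 30.2% (18.6% to 45.1%), against 3.57% (1.40% to 8.82%) for VvmiR166b-h. In VvmiR396a-d, which acts on GROWTH-REGULATING FACTOR genes, 12 of 13 reads at MB were 17 nt long and 0 were 14 nt long. Over all listed groups other than VvmiR166, 3.87% of the fragments at MB were 14 nt long (1.89% to 7.77%), which does not overlap with the interval of VvmiR166b-h.

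**Figure D3:**
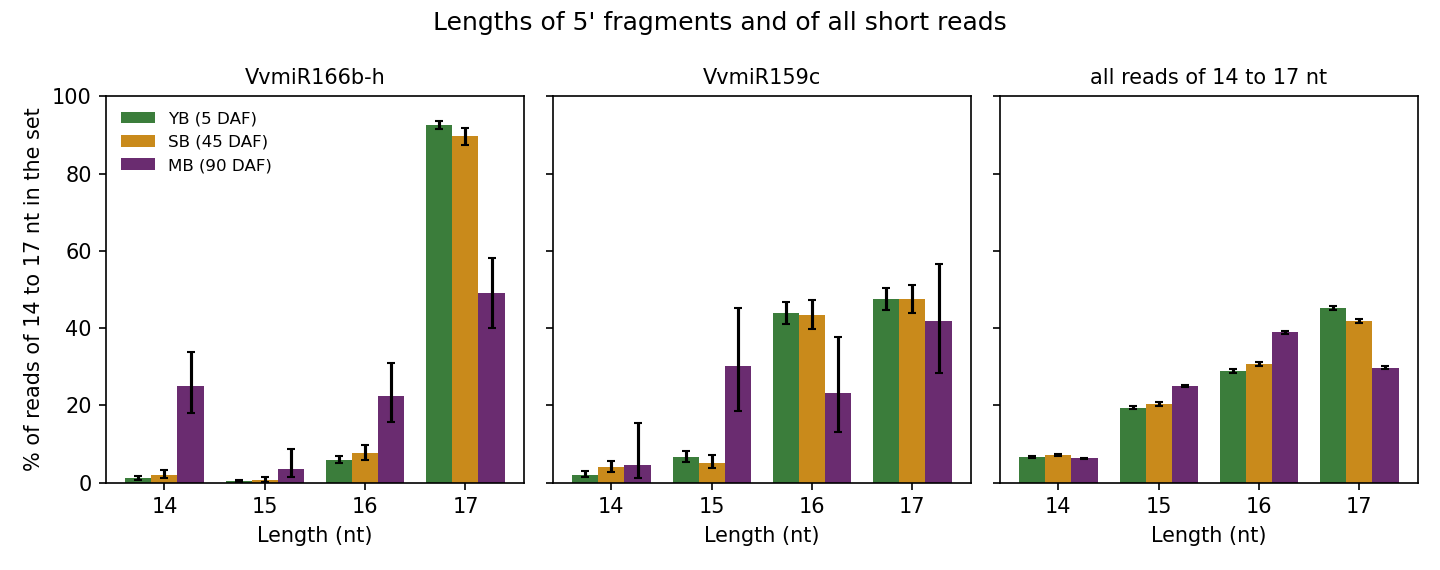
Share of each length (%, x axis length in nt) amongst the reads of 14 to 17 nt of VvmiR166b-h, of VvmiR159c and of the whole library, for YB, SB and MB (1 library each, bars with 95% Wilson intervals). VvmiR166b-h is almost all 17 nt at YB and SB, and at MB 25.0% of it is 14 nt long.

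Reads with the earlier start of VvmiR166a were near the limit of detection in every library. The YB and SB libraries had 2 reads each and the MB library 5, or 0.00503% (0.00138% to 0.0183%), 0.00602% (0.00165% to 0.0219%) and 0.00658% (0.00281% to 0.0154%) of the reads below 18 nt. A count of 3 reads corresponds to 0.00754% of the YB library, 0.00903% of SB and 0.00395% of MB, and a difference between the stages was not detectable at this depth. The 14 nt form of VvmiR166a was read once in each library, its 16 nt form had 1, 0 and 3 reads, and its 17 nt form had 0, 1 and 1.

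Nearly all reads from within a VvmiR166 sequence began at base 1 of VvmiR166b-h. These were 99.4% of such reads at YB (99.0% to 99.6% of 2302), 99.4% at SB (98.6% to 99.8% of 716) and 93.3% at MB (87.4% to 96.6% of 120). Reads with the start of VvmiR166a were 0.0869% at YB, 0.279% at SB and 4.17% at MB (1.79% to 9.38%). Reads that began at base 2 numbered 7, 1 and 2, and those that began at base 3 numbered 4, 0 and 1. From base 7 or 8, 1 read at SB reached the last base of VvmiR166c-h and 1 read at YB that of VvmiR166b. No other read of 14 to 17 nt from within the mature sequence reached the last base of VvmiR166b-h.

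Reads with 1 base different from VvmiR166b-h were few. Bases 1 and 2 and the final base of a read were not searched. The reads with a difference were 43 of 2331 reads at YB (1.84%, 95% Wilson interval 1.37% to 2.48%), 20 of 732 at SB (2.73%, 1.78% to 4.18%) and 2 of 114 at MB (1.75%, 0.482% to 6.17%), and the intervals overlapped. Counting only sequences with at least 2 reads, the shares were 0.995% at YB, 0.974% at SB and 0% at MB. Numbering the bases from 1 at the 5′-end and writing the mature base first, C11A was the most frequent, with 4, 3 and 0 reads at YB, SB and MB. C11T followed with 5, 1 and 0 reads. The next place was shared by C6G, C6T, C14T and T16G, with 4 reads each over the 3 libraries. The most frequent forms are shown with the different base in capitals:
C11A: tcggaccaggAttcatt
C11T: tcggaccaggTttcatt
Position 11 had 10 of the 43 different bases at YB and 6 of the 20 at SB, and no other position had more than 6 at YB or 3 at SB. No single form reached more than 5 reads in a library. Differences at position 11 of other sequences were not counted, and the cause of these was not tested.

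A further set of reads held both ends of a VvmiR166 without the bases between them. It was searched for after the reads had been seen, as the first 12 or more bases joined to the last 2 or more bases of the mature sequence. The most frequent ones had the first 14 bases and then the last 3 bases, in capitals, of one or the other mature sequence:
VvmiR166c-h ends: tcggaccaggcttcCCC
VvmiR166b ends: tcggaccaggcttcCTC
Both are 17 nt long and lack the 4 bases attc of the 21 nt sequence. The bases ttc stand on both sides of the break, so that the join may lie anywhere from base 11 to base 14. The form with the end of VvmiR166c-h had 4, 8 and 2 reads at YB, SB and MB, and that with the end of VvmiR166b had 4, 4 and 2. These are the only short reads that separate VvmiR166b from VvmiR166c-h in more than 3 reads of a library.

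Amongst all 17 nt reads that began with these 14 bases, 10 endings other than att were found. Of these, 7 differed from att by 1 base. The other 3 were CCC and CTC, the ends of VvmiR166c-h and VvmiR166b, and ACC, which is base 15 followed by the last 2 bases of VvmiR166c-h. The endings CCC and CTC together made up 8 of 2139 such reads at YB (0.374%, 0.190% to 0.736%), 12 of 659 at SB (1.82%, 1.04% to 3.16%) and 4 of 60 at MB (6.67%, 2.62% to 15.9%). The YB interval lay below both others, and those of SB and MB overlapped. As a share of all reads below 18 nt, these joined forms made up 0.0201% at YB (0.0102% to 0.0397%), 0.0361% at SB (0.0207% to 0.0631%) and 0.00527% in the MB library (0.00205% to 0.0135%). On this scale MB was below SB, while the 17 nt reads of the first denominator numbered 659 at SB and 60 at MB. All joined forms of 14 to 17 nt came to 16 reads in the YB library, 22 in SB and 6 in MB. The SB library thus had the most such reads. It also had the fewest reads below 18 nt of the 3, a total that is not the depth of the library. An end of 2 bases is short. The 17 nt form ending in ATC had 1, 2 and 0 of these reads at YB, SB and MB. The 15 nt form ending in CC had 1, 1 and 0. Both differ from the identical fragment of their length in the last base only, so they need not be joined forms. Other forms with an end of 2 bases may also differ from the mature sequence in another way, which was not tested.

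**Figure D4:**
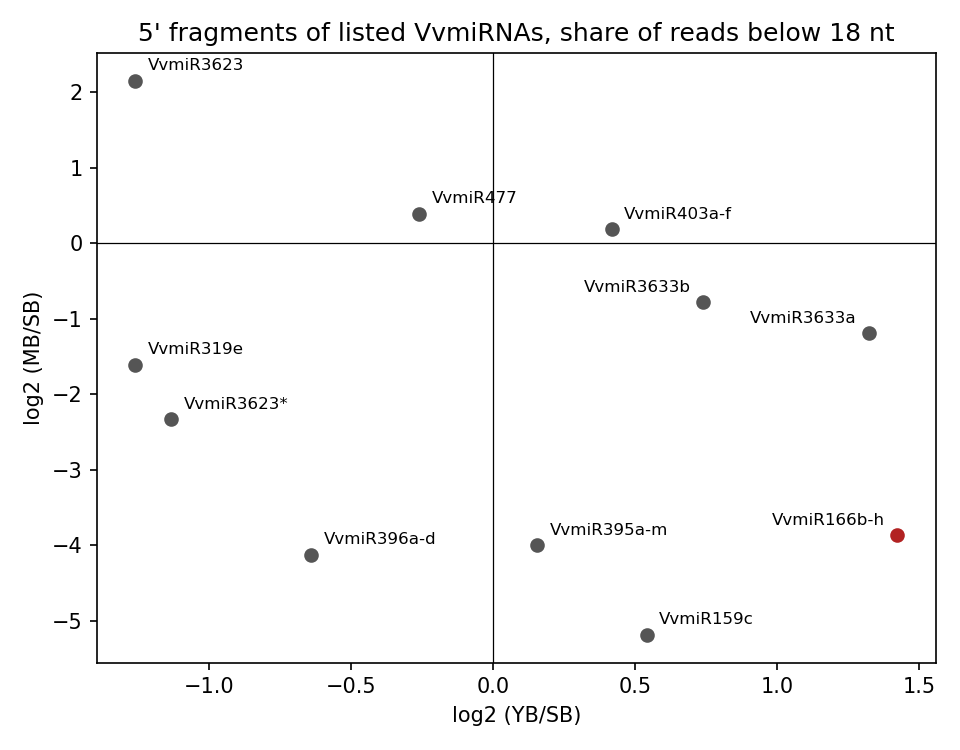
log2 (MB/SB) against log2 (YB/SB) of the share of reads below 18 nt for the 11 groups of listed VvmiRNAs with at least 10 fragments over the 3 libraries, with counts under 3 set to 3 (1 library per stage). VvmiR166b-h (red) lies at 1.42 and −3.86, and VvmiR395a-m is drawn at the floor, with 1 read at MB. VvmiR3633a, VvmiR3633b and VvmiR477 also have counts set to the floor.

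The groups whose pattern over the 3 libraries was nearest to that of VvmiR166b-h were found by the distance of their 2 log2 ratios from its own. VvmiR159c, with 1192, 684 and 43 reads at YB, SB and MB, was at a distance of 1.59 log2 units, and VvmiR396a-d at 2.08. VvmiR395a-m, a family that acts on sulfate assimilation genes, had 28, 21 and 1 reads. Its distance was 1.28 with the MB count set to the floor of 3 reads and 2.14 with the 1 read as counted, so its place amongst the 3 depends on the floor. None of these 3 passed the cut-off from SB to YB, where the log2 was 0.54 (0.40 to 0.68) for VvmiR159c, −0.64 (−1.09 to −0.20) for VvmiR396a-d and 0.15 for VvmiR395a-m. From SB to MB, the log2 of VvmiR159c was −5.18 (−5.66 to −4.74), below the interval of VvmiR166b-h, and that of VvmiR396a-d was −4.12 (−5.08 to −3.28), which overlaps with it.

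Amongst 11 other miRNA families that act on transcription factors of plant development, most gave few fragments. VvmiR390 is counted with them although it acts on ARF genes only by way of the TAS3 transcript. VvmiR159, with VvmiR159c as its form found here, had 684 reads at SB, close to the 712 of VvmiR166b-h, and VvmiR396 had 76, 99 and 13 reads at YB, SB and MB. VvmiR160, VvmiR171, VvmiR172 and VvmiR390 had 0 reads in all 3 libraries, and 3 had at least 10 reads in a library, namely VvmiR159, VvmiR319 and VvmiR396. VvmiR156, which acts on SPL genes, had 3, 2 and 3 reads at YB, SB and MB. VvmiR319, which acts on TCP genes, had 9, 14 and 9 reads. As sums over their groups, none of the 3 families with at least 10 reads passed the cut-off from SB to YB. VvmiR319e alone, with 6 and 12 reads at YB and SB, passed it downwards (log2 −1.26, −2.96 to 0.27). From SB to MB, all 3 families passed the cut-off downwards, with a median log2 (MB/SB) of −4.12. VvmiR319 lay nearest to the cut-off, at −1.83. These values are against reads below 18 nt, and other totals were not applied to these families. Of all 8 groups tested, amongst them VvmiR166b-h and groups of these families, 6 (75%) passed it downwards. The median over the 8 groups was −3.10.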

How the data were processed

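Berries at YB, SB and MB (1 library each) were compared. For each library, the authors deposited raw read counts per distinct sequence, with its length, after trimming adapters and collapsing identical reads. The software of this step, and whether molecular identifiers were collapsed, are not given in the sources used here. The methods name selection of RNA of 18 nt and longer on a gel, and its effect on shorter reads was not tested. Mature sequences came from the supplementary list of known VvmiRNAs of the study. Members, lists and rules were chosen with earlier results of these data known.

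Reads of 14 to 17 nt identical to the 5′-end were summed and divided by all reads below 18 nt, which are not the depth of the library. Shares carry 95% Wilson intervals and log2 ratios exact conditional 95% intervals. No count model was fitted, since no stage has replicates, and no p-values are given. Counts under 3 were set to 3 in ratios, and no ratio was given with both at or under 3. Groups needed at least 10 reads in the library with more, and the cut-off was an absolute log2 of 1. Named are VvmiR166 in full, VvmiR159c, VvmiR396a-d, the 3 nearest groups, 11 families acting on transcription factors (VvmiR390 by way of TAS3) and the most frequent single-base differences and 3′ ends, 3 of each, with ties. VvmiR168, VvmiR162, VvmiR164a/c/d, VvmiR3623*, VvmiR3633b and VvmiR477 were named after their values were seen. The alternatives were other totals (14 to 17 nt reads, all listed fragments, reads without the 2 most abundant families, clean reads as given or implied by the study, TMM of edgeR 4.0.16 and size factors of DESeq2 1.42.0 in R 4.3.3), other lengths, 1 different base, at least 2 reads and VvmiR166a included. Calculations used Python 3.11.15, scipy 1.17.1 and numpy 2.4.6. The log2 ratios and the counting of 5′ fragments were tested on simulated data. The searches for different bases, other starts and joined ends were not.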

Additional observations from a re-analysis of the deposited data

How the results depend on the processing

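The log2 (YB/SB), (MB/SB) and (MB/YB) of VvmiR166b-h kept their direction under 36 of 36 alternatives and stayed past the cut-off under 33. The exceptions were the values scaled by all listed 5′ fragments, which were 0.48, −0.26 and −0.73, a total in which VvmiR166b-h itself had 37.6% to 62.5% of the reads. The 17 nt shares stayed within their intervals under 12 of 12 alternatives. With sequences of at least 2 reads only, the share with 1 different base was 0.995% at YB, 0.974% at SB and 0% at MB, and the share starting at base 1 was 100% at SB. With 17 nt reads only, the latter was 99.7% at YB. Scalings of each length were added after the values were seen. The 14 nt log2 (MB/SB) became positive against clean reads (1.10) and without the 2 most abundant families (0.77), as did the 15 nt value against clean reads (0.10). The cause was not tested. No paired analysis was possible because each stage has 1 library, and for the same reason no replicate could be left out. Counts of 2 to 5 reads limit VvmiR166a, and 112 reads limit VvmiR166b-h at MB.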

Other observations

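Reads that join both ends of a mature sequence were also searched for in the other 85 groups of listed VvmiRNAs, by the same rule and after the VvmiR166 reads had been seen. VvmiR166b-h had 44 such reads over the 3 libraries, beside 3112 identical 5′ fragments. VvmiR168, which acts on the AGO1 gene of the miRNA pathway itself, had 8 (3 at YB, 1 at SB and 4 at MB) beside 2 identical fragments. In each of 6 further groups, amongst them VvmiR162 and VvmiR164a/c/d, 1 such read was found. VvmiR159c, VvmiR395a-m and VvmiR396a-d had 0, although VvmiR159c had 1919 identical fragments.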
